A study of Homo sapiens with 13 samples.

Results

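The genes described here are 10 factors and targets of the integrated stress response: ATF4, DDIT3, ATF3, TRIB3, CHAC1, ASNS, PPP1R15A, NUPR1, DDIT4 and CEBPB. They were chosen by name as known parts of the pathway, with earlier results of these data known. All 10 were among the 60591 genes of the deposited count table and all 10 passed the filter on low counts, which 19514 genes passed. The RNA came from TE11, which the labels give as a human oesophageal squamous cell carcinoma line, grown for 48 h under 1 of 4 treatments. The vehicle group (n = 4) received 0.1% DMSO. The chloroquine group (n = 3) received 10 µM chloroquine, a weak base that collects in lysosomes and raises their pH. The 5-FU group (n = 3) received 25 µM 5-fluorouracil, a pyrimidine analogue that disturbs thymidylate synthesis and enters RNA and DNA. The combination group (n = 3) received 10 µM chloroquine with 25 µM 5-FU. The labels give no DMSO content for the groups with drug. A difference in DMSO from vehicle could thus not be told apart from the drugs. All groups shared the cell line, the duration and a medium of DMEM with 10% serum. Nothing in the labels says that replicates were grown as separate cultures. The tests therefore measure spread among libraries that may be technical.

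In the integrated stress response, stress-sensing kinases phosphorylate the alpha subunit of eIF2, the initiation factor that brings the first tRNA to the ribosome. General translation then slows while a few mRNAs, ATF4 among them, are translated more. The transcription factor ATF4 raises genes for amino acid supply, redox balance and further transcription factors such as CHOP (the product of DDIT3) and ATF3. PPP1R15A encodes GADD34, which directs a phosphatase back to eIF2alpha and ends the response. Because ATF4 is controlled largely at translation, its mRNA level does not give the level of the protein, which was not measured here.

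The libraries held between 17834539 and 23679833 counts. In all, 5 libraries carried transcripts foreign to an epithelial line: COL1A2, a fibroblast collagen, had 741 counts in vehicle 4, 607 in chloroquine 1, 450 in chloroquine 2, 159 in 5-FU 2 and 153 in combination 2, against 1 to 7 in the other 8 libraries. The summed level of a fibroblast marker list was 30.5 to 132 CPM (counts scaled to a common library total) in those 5 libraries and 11.4 to 30.2 CPM in the other 8. Leukocyte markers summed to 2.79 to 18.3 CPM against 0.44 to 2.34 CPM, erythroid and exocrine markers to 2.25 to 28.9 CPM against 0.742 to 3.39 CPM, and endothelial markers overlapped (0.964 to 1.26 CPM against 0.243 to 1.31 CPM). Of 16 squamous and basal markers, 7 stayed at or under 10 counts in all 8 libraries with low COL1A2. Among them were TP63 and KRT5, which define basal squamous cells and reached at most 3 and 2 counts in any library. Other markers of the list were present in every library, among them SOX2 (192 to 353 counts), ITGA6 (583 to 1122) and the simple-epithelial keratin KRT18 (747 to 1361). The epithelial markers CDH1 (27 to 57 counts) and EPCAM (27 to 74) were lower, and KRT8 had 54 to 389. KRT14 reached at most 12 counts in any library, and KRT6A, KRT15, PKP1 and DSG3 at most 2, 2, 2 and 1. The libraries thus held some transcripts of epithelial genes but almost no counts of TP63, KRT5 and these other squamous genes. Of the 3 chloroquine libraries, 2 were among the 5 with high COL1A2. The changes in chloroquine against vehicle are therefore also given below from the 8 libraries with low COL1A2.

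Promoter sequences are shown for the 4 members in which a stress response element was found, so that the element can be read beside their values. RefSeq promoters (GRCh38.p14, from 250 bases before to 50 bases after each start) matched 9 of the 10 members, all but NUPR1. The element TGATGNAA, the composite site that ATF4 binds with a C/EBP partner, was searched on both strands. It was present in 3 of the 9 members (33.3%) and in 1217 of 27305 genes of the promoter table (4.46%). A gene can have more than 1 start and was counted if the window of any start held the element. By window the shares were 18.8% for the members (3 of 16) and 3.62% for all genes. The palindromic cyclic AMP response element TGACGTCA, which does not overlap the first element here, was present in 1 of 9 members (11.1%) and 2.25% of all genes. Each sequence below is the 250 bases before the start, 5′ to 3′ on the strand of the gene, with the element in capitals. ATF3 (chr1:212565157-212565406, plus strand) held the composite element 191 bases before the start, CHAC1 (chr15:40953221-40953470, plus strand) held it 209 bases before the start on the opposite strand, and ASNS (chr7:97872409-97872658, minus strand) held it 68 bases before the start. PPP1R15A (chr19:48872171-48872420, plus strand) held the cyclic AMP response element 58 bases before the start.
ATF3: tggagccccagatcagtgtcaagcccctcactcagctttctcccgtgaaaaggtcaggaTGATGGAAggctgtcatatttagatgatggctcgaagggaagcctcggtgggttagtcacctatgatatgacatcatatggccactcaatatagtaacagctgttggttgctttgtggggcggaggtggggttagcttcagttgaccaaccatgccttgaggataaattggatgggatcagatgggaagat
CHAC1: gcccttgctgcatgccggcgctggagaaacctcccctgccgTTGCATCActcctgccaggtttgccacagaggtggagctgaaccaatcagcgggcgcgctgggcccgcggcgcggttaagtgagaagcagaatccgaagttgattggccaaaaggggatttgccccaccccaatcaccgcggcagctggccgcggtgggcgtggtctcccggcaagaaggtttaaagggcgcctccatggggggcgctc
ASNS: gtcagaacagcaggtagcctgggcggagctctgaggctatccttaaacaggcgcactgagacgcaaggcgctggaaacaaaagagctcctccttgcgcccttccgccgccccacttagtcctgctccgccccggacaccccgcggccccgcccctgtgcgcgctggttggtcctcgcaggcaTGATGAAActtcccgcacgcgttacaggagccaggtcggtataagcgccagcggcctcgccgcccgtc
PPP1R15A: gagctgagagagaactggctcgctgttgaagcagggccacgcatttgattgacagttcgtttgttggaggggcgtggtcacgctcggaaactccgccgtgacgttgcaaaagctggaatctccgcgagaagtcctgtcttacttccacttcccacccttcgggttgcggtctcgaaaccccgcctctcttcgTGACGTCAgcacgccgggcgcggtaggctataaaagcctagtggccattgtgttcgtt
A match is a description of these letters and not evidence of binding, and the other 5 matched members held neither element in this window.

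The members changed as separate groups, not together. Chloroquine alone raised 9 of the 10. 5-FU raised the stress transcription factors DDIT3 and ATF3, the phosphatase subunit PPP1R15A and NUPR1, and lowered ATF4, CEBPB, ASNS and DDIT4. The combination kept the high DDIT3, ATF3 and PPP1R15A of 5-FU, and CHAC1, the member with the largest rise in chloroquine after NUPR1, was not raised there. Levels below are CPM, with library totals adjusted by the TMM factors of edgeR, and changes are log2 fold changes with their standard error and an edgeR quasi-likelihood p adjusted over all 19514 genes (Benjamini-Hochberg, called at 0.05). In bulk RNA a change in the number of expressing cells and a change in RNA per cell cannot be told apart.

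**Figure D1:**
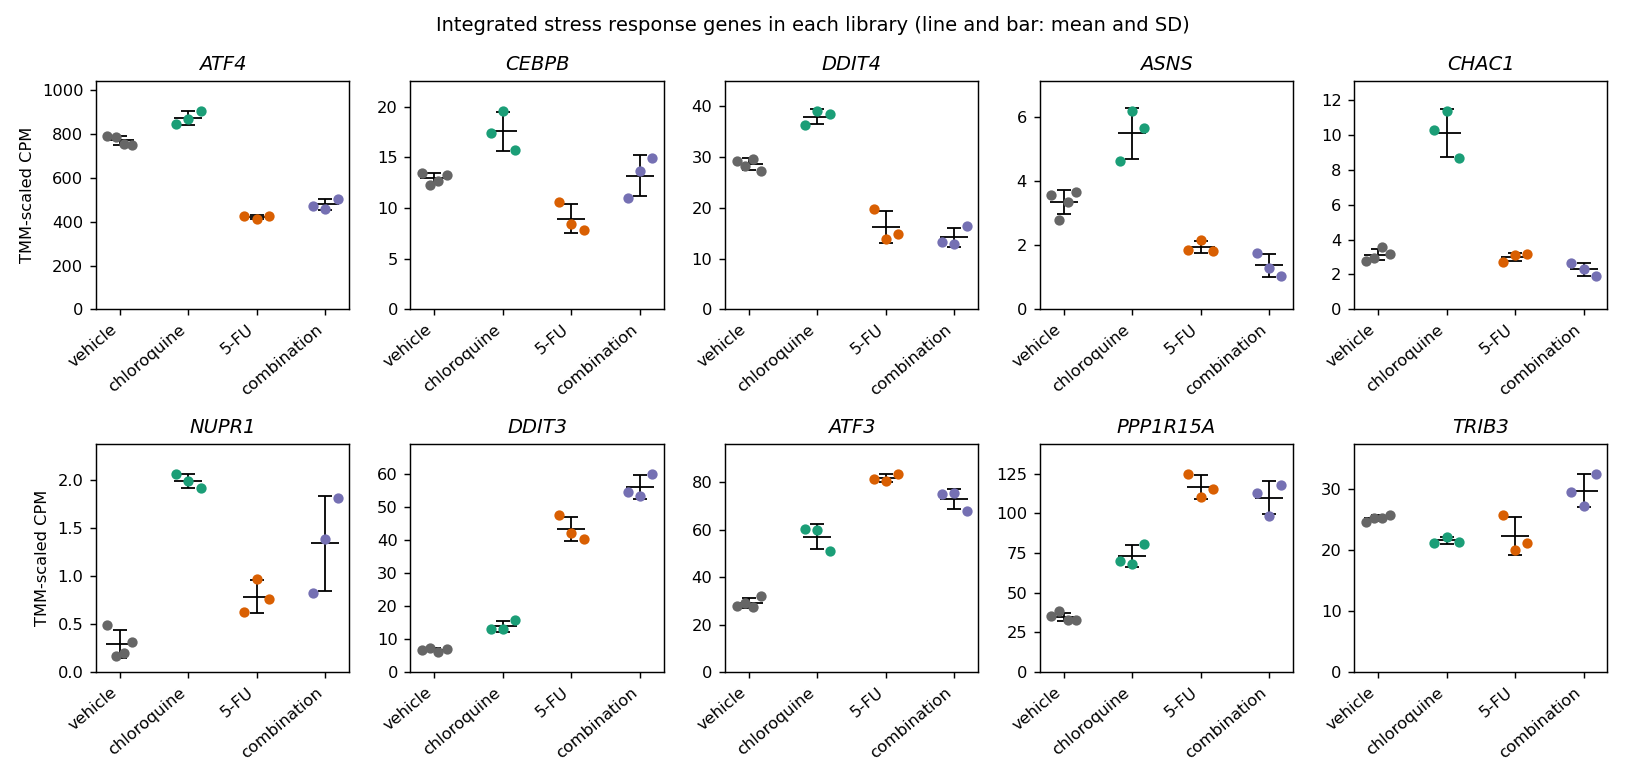
Level of each of the 10 genes in every library, in TMM-scaled CPM on a linear axis, by treatment group. Points are libraries, and bars give the group mean and standard deviation. ATF4, ASNS and DDIT4 are lowest in the 2 groups with 5-FU, DDIT3, ATF3 and PPP1R15A are highest in them, and CHAC1 and NUPR1 are highest in chloroquine.

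ATF4, the central transcription factor, stood at 792, 789, 756 and 752 CPM in the 4 vehicle libraries and 845, 870 and 907 CPM in chloroquine. It stood at 428, 411 and 426 CPM in 5-FU and 474, 459 and 506 CPM in the combination. The 4 groups did not overlap, with chloroquine highest and 5-FU lowest. In 5-FU the ATF4 mRNA fell by 0.87 on the log2 scale (SE 0.0431, edgeR adjusted p = 9.44e-10), and in the combination it fell by 0.69 (SE 0.0428, adjusted p = 1.09e-08). Its rise in chloroquine was small, at 0.18 ± 0.042 (adjusted p = 0.00376), and was not called without the filter on low counts (adjusted p = 0.0718). Rows named as ATF4 pseudogenes held 1.61 to 2.66% of the ATF4 count, and adding them left the 3 changes against vehicle at 0.18, -0.87 and -0.69.

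CEBPB, a C/EBP factor that pairs with ATF4 and also has its own inflammatory and metabolic roles, stood at 13.5, 12.3, 12.7 and 13.3 CPM in vehicle and 17.4, 19.6 and 15.7 CPM in chloroquine. It was at 10.6, 8.46 and 7.82 CPM in 5-FU and 11, 13.7 and 14.9 CPM in the combination. Chloroquine lay above and 5-FU below every vehicle library, while the combination spread across the vehicle range. The change was 0.44 ± 0.114 in chloroquine (edgeR adjusted p = 0.00655), -0.54 ± 0.121 in 5-FU (adjusted p = 0.00142) and 0.03 ± 0.116 in the combination (adjusted p = 0.844, 95% interval -0.22 to 0.28). The gene CEBPB-AS1 overlaps CEBPB on the opposite strand and had 5 to 17 counts.

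DDIT3, which encodes the pro-apoptotic factor CHOP, showed the largest rise under 5-FU of the 10. Its levels were 6.81, 7.36, 6.13 and 6.86 CPM in vehicle, 12.9, 13 and 15.8 CPM in chloroquine, 47.5, 42.2 and 40.4 CPM in 5-FU and 54.4, 53.4 and 60.1 CPM in the combination. The groups formed 4 separate steps in that order with no overlap. Against vehicle the change was 1.03 ± 0.0993 in chloroquine (edgeR adjusted p = 3.11e-06), 2.68 ± 0.09 in 5-FU (adjusted p = 2.7e-11) and 3.05 ± 0.0891 in the combination (adjusted p = 1.26e-11). These last values are 6.39-fold and 8.25-fold. DDIT3 overlaps MBD6 and MARS1 on the opposite strand, and no source used here says if reads were counted by strand. MBD6 changed by 0.44 in 5-FU and by -0.44 in the combination, and MARS1 by -0.89 and -0.79, while DDIT3 was highest in the combination.

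ATF3, a stress-induced repressor and activator that acts beside CHOP, was at 28.0, 29.2, 27.2 and 31.9 CPM in vehicle and 60.3, 60.0 and 51.1 CPM in chloroquine. It reached 81.4, 80.6 and 83.7 CPM in 5-FU and 75.0, 75.5 and 67.9 CPM in the combination. All 4 groups were separate, with 5-FU highest. The change against vehicle was 0.98 ± 0.0718 in chloroquine (edgeR adjusted p = 3.41e-07), 1.49 ± 0.0706 in 5-FU (adjusted p = 6.32e-10) and 1.32 ± 0.0708 in the combination (adjusted p = 2.35e-09).

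PPP1R15A, the GADD34 phosphatase subunit that closes the response, stood at 35.4, 38.3, 32.6 and 32.5 CPM in vehicle and 70.0, 68.0 and 80.7 CPM in chloroquine. It was at 125, 110 and 115 CPM in 5-FU and 113, 98.0 and 118 CPM in the combination. Vehicle and chloroquine were each separate from all other groups, and 5-FU and the combination overlapped. The change was 1.07 ± 0.0849 in chloroquine (edgeR adjusted p = 6.07e-07), 1.75 ± 0.0837 in 5-FU (adjusted p = 7.1e-10) and 1.66 ± 0.0837 in the combination (adjusted p = 1.36e-09). Its constitutive relative PPP1R15B, from the list of eIF2, eIF2B and phosphatase genes, rose by 0.27 ± 0.0508 in chloroquine. PPP1R15B fell where PPP1R15A rose further, at -0.37 ± 0.0517 in 5-FU (edgeR adjusted p = 2.6e-05) and -0.25 ± 0.0515 in the combination (adjusted p = 0.000776).

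TRIB3, a pseudokinase that CHOP and ATF4 raise and that restrains both AKT and ATF4, had small changes in all 3 treatments. It stood at 24.6, 25.3, 25.3 and 25.8 CPM in vehicle, 21.2, 22.2 and 21.4 CPM in chloroquine, 25.8, 20.0 and 21.2 CPM in 5-FU and 29.6, 27.2 and 32.6 CPM in the combination. The chloroquine libraries lay below every vehicle library and the combination libraries above all others, while 5-FU 1 equalled the highest vehicle library and 5-FU 2 and 5-FU 3 lay below vehicle. The chloroquine change was -0.23 ± 0.0839 (edgeR adjusted p = 0.0455) and was not called when any vehicle or chloroquine library was left out (-0.25 to -0.21). The 5-FU change of -0.18 ± 0.083 was not called (adjusted p = 0.0738, 95% interval -0.36 to 0) but was called without 5-FU 1 (-0.30, adjusted p = 0.00216). In the combination TRIB3 rose by 0.24 ± 0.0811 (adjusted p = 0.0212), which was not called without combination 1 (0.24) or combination 3 (0.17).

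ASNS, asparagine synthetase and a classical ATF4 target, was at 3.57, 2.80, 3.36 and 3.66 CPM in vehicle and 4.64, 6.20 and 5.65 CPM in chloroquine. It was at 1.84, 2.16 and 1.83 CPM in 5-FU and 1.77, 1.30 and 1.04 CPM in the combination. Counted on ASNS alone, without the pseudogene rows named below, the 4 groups did not overlap. The change was 0.71 ± 0.167 in chloroquine (edgeR adjusted p = 0.00372), -0.78 ± 0.18 in 5-FU (adjusted p = 0.00168) and -1.28 ± 0.187 in the combination (adjusted p = 4.2e-05). Rows named as ASNS pseudogenes held between 13 and 75.9% of the ASNS count, so reads may have been split between near-identical copies. With those rows added to ASNS the changes were 0.99, -0.59 and -0.77, all called (adjusted p = 0.000253, 0.00917 and 0.00183). The transcript AC079781.5 overlaps ASNS on the same strand and had 22 to 82 counts, beside 23 to 137 for ASNS. Its changes did not pass (0.46 ± 0.245 in chloroquine, 0.13 ± 0.248 in 5-FU and 0.59 ± 0.242 in the combination). How reads shared by the 2 genes were assigned was not tested.

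CHAC1, an enzyme that degrades glutathione and a sensitive marker of ATF4 activity, was at 2.80, 2.97, 3.55 and 3.20 CPM in vehicle and 10.3, 11.4 and 8.70 CPM in chloroquine. It was at 2.71, 3.13 and 3.15 CPM in 5-FU and 2.68, 2.29 and 1.94 CPM in the combination. The chloroquine libraries stood far above the other 10, and the combination libraries below all of them. The change was 1.70 ± 0.131 in chloroquine (edgeR adjusted p = 5.36e-07), -0.06 ± 0.142 in 5-FU (adjusted p = 0.724, 95% interval -0.37 to 0.24) and -0.44 ± 0.146 in the combination (adjusted p = 0.0191). The combination call was lost without vehicle 3 (-0.37, edgeR adjusted p = 0.0592) and without combination 3 (-0.33, adjusted p = 0.0938). It was also lost with library-size scaling (-0.29, adjusted p = 0.108), without the filter on low counts (-0.44, adjusted p = 0.0627) and in the 8 libraries with low COL1A2 (-0.44).

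DDIT4, which encodes REDD1, an inhibitor of mTORC1, was at 29.3, 28.2, 29.7 and 27.2 CPM in vehicle and 36.3, 39.1 and 38.5 CPM in chloroquine. It was at 19.8, 13.9 and 14.8 CPM in 5-FU and 13.2, 12.9 and 16.4 CPM in the combination. The groups with 5-FU overlapped each other and lay below every vehicle and chloroquine library. The change was 0.41 ± 0.102 in chloroquine (edgeR adjusted p = 0.00564), -0.83 ± 0.109 in 5-FU (adjusted p = 1.29e-05) and -1.01 ± 0.11 in the combination (adjusted p = 2.51e-06).

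NUPR1, a small stress-induced chromatin protein, was the scarcest member, with 3 to 9 counts in the vehicle libraries and 34 to 45 in chloroquine. Its levels were 0.495, 0.171, 0.195 and 0.309 CPM in vehicle, 2.07, 1.99 and 1.92 CPM in chloroquine, 0.629, 0.966 and 0.758 CPM in 5-FU and 0.822, 1.39 and 1.81 CPM in the combination. Every treated library lay above every vehicle library. The change was 2.75 ± 0.34 in chloroquine (edgeR adjusted p = 2.54e-05), 1.41 ± 0.363 in 5-FU (adjusted p = 0.00375) and 2.18 ± 0.347 in the combination (adjusted p = 9.45e-05). Chloroquine 3, which has low COL1A2, was close to the other chloroquine libraries.

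**Figure D2:**
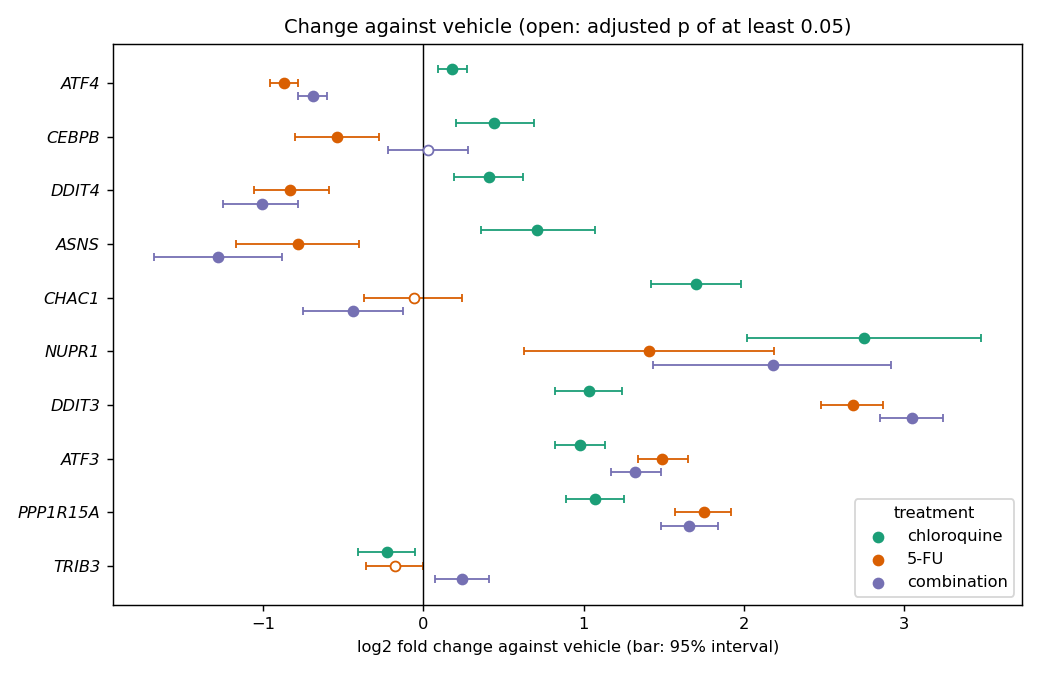
Log2 fold change against vehicle of the 10 genes in chloroquine, 5-FU and the combination, with 95% intervals from edgeR. Intervals for chloroquine lie above 0 for all genes except TRIB3, while for 5-FU and the combination ATF4, ASNS and DDIT4 lie below 0 and DDIT3, ATF3, PPP1R15A and NUPR1 above it.

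Counted together, 9 members rose and 1 (TRIB3) fell in chloroquine against vehicle, with a median change of 0.84. Of all 19514 genes tested, 39.4% were called in that comparison (20.3% higher, 19.1% lower) and the median change was 0.02. In 5-FU 4 members were called higher and 4 lower (median -0.12), where 60.3% of all genes were called (30.8% higher, 29.5% lower). In the combination 5 were called higher and 4 lower (median 0.14), where 55.4% were called (28.1% higher, 27.2% lower). The members' shares for 5-FU and the combination therefore stand against backgrounds of 60.3% and 55.4%. The libraries of the 2 groups did not overlap for 10 members in chloroquine against vehicle, 8 in 5-FU and 9 in the combination, against 47.8%, 58.1% and 58.8% of all genes tested. These 3 comparisons share their vehicle libraries. As the members were chosen with earlier results of these data known, their shares are not independent of the data.

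A test of chloroquine that rests on 1 library, chloroquine 3, assumes that it varies like those of the other groups. The 8 libraries with low COL1A2 hold only this 1 of its group. In them the changes in chloroquine against vehicle were 2.73 for NUPR1, 1.47 for CHAC1, 1.22 for DDIT3, 1.18 for PPP1R15A, 0.86 for ATF3, 0.79 for ASNS, 0.40 for DDIT4 and 0.22 for ATF4, each called by edgeR (adjusted p between 3.87e-07 and 0.0418). CEBPB (0.29, adjusted p = 0.243) and TRIB3 (-0.23, adjusted p = 0.207) were not called. With 5-FU, 2 libraries of each group remained. There CHAC1 in the combination (-0.44) was the only member whose call against vehicle in 5-FU or the combination changed, and it was lost.

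The single drugs were also compared directly. Against chloroquine, 5-FU gave higher DDIT3 (1.64 ± 0.0901, edgeR adjusted p = 3.98e-09), PPP1R15A (0.68 ± 0.0872, adjusted p = 1.39e-05) and ATF3 (0.52 ± 0.0734, adjusted p = 3.33e-05). It gave lower CHAC1 (-1.76 ± 0.142), ASNS (-1.50 ± 0.186), NUPR1 (-1.34 ± 0.326), DDIT4 (-1.23 ± 0.113), ATF4 (-1.05 ± 0.0456) and CEBPB (-0.98 ± 0.125), with adjusted p between 4.89e-10 and 0.00295. TRIB3 did not pass (0.04 ± 0.0892, adjusted p = 0.7). Of all genes, 54.8% were called here (27.1% higher, 27.6% lower). Libraries of the drugs did not overlap for 9 members and for 58.7% of all genes.

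Whether chloroquine altered the members in cells that also received 5-FU was read from the combination against 5-FU. In all, 4 members were higher and 0 lower, where 38.5% of all genes were called (20.2% higher, 18.3% lower). Libraries of these groups did not overlap for 7 members and for 46.6% of all genes. The members called higher were CEBPB (0.57 ± 0.126, edgeR adjusted p = 0.00268), TRIB3 (0.42 ± 0.0869, adjusted p = 0.00159), DDIT3 (0.37 ± 0.0812, adjusted p = 0.0025) and ATF4 (0.18 ± 0.0452, adjusted p = 0.00521). Same-numbered libraries of these groups deviated together. A fit of these groups alone had the replicate number as a block. In it ATF4 was not called (0.16, edgeR adjusted p = 0.101) and NUPR1 was (0.75, adjusted p = 0.0386). ATF4 was also not called in a fit of these groups without a block (0.16, adjusted p = 0.0585) or without the filter on low counts (0.2, adjusted p = 0.0512). The 6 members that did not pass were NUPR1 (0.77 ± 0.33), PPP1R15A (-0.08 ± 0.0857, 95% interval -0.27 to 0.10), ATF3 (-0.17 ± 0.0724), DDIT4 (-0.19 ± 0.12), CHAC1 (-0.38 ± 0.154) and ASNS (-0.50 ± 0.202). Without combination 1, CHAC1 (-0.50), ASNS (-0.73) and NUPR1 (1.02) were also called, which made 7. Over all alternatives CHAC1 ranged from -0.50 to -0.27, ASNS from -0.73 to -0.18 and NUPR1 from 0.49 to 1.02. Without chloroquine 3 ATF3 was called (-0.17). Scaling by library size alone also gave 7 calls, 4 higher and 3 lower.

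Against chloroquine alone, the combination gave higher DDIT3 (2.01 ± 0.0896, edgeR adjusted p = 1.19e-09), PPP1R15A (0.59 ± 0.0872), TRIB3 (0.47 ± 0.0876) and ATF3 (0.35 ± 0.0735). It gave lower CHAC1 (-2.14 ± 0.146, adjusted p = 4.62e-08), ASNS (-1.99 ± 0.193), DDIT4 (-1.42 ± 0.115), ATF4 (-0.87 ± 0.0454) and CEBPB (-0.41 ± 0.12). NUPR1 did not pass (-0.57 ± 0.312, adjusted p = 0.143). In this comparison 50.6% of all genes were called (24.8% higher, 25.7% lower). Libraries did not overlap for 10 members and for 60.5% of all genes. The CEBPB call was lost without chloroquine 2 (-0.33), without combination 1 (-0.29) and in the 8 libraries with low COL1A2 (-0.28). DDIT3 and TRIB3 were thus the 2 members called higher in the combination than in either drug alone, and 0 members were called lower than in both.

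**Figure D3:**
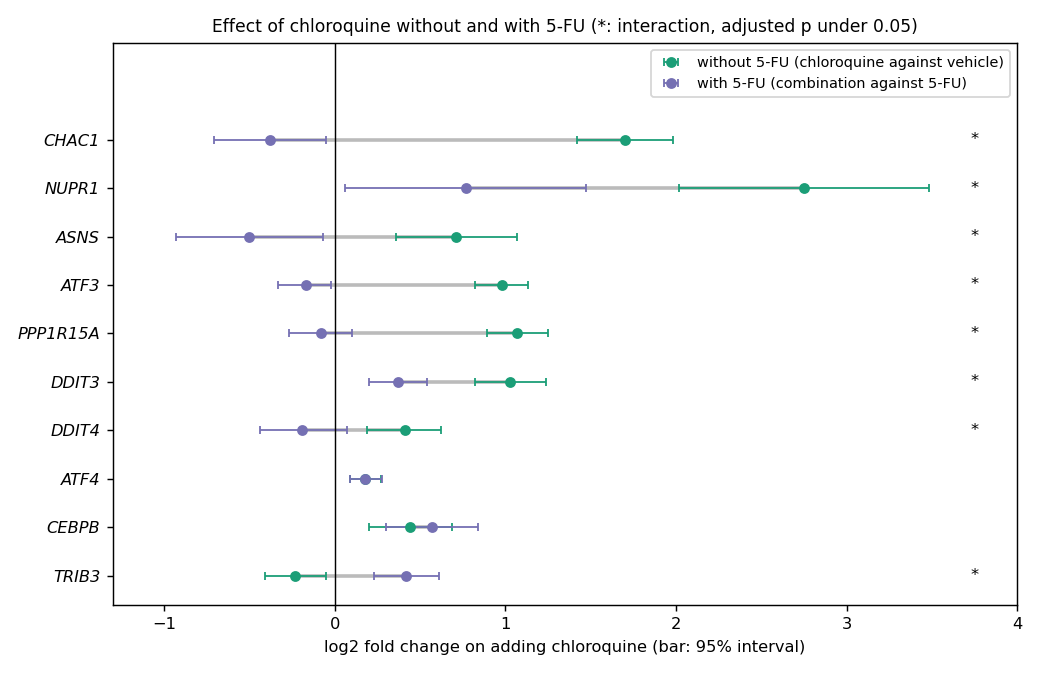
Log2 effect of chloroquine on each of the 10 genes without 5-FU (chloroquine against vehicle) and with 5-FU (combination against 5-FU), with 95% intervals. CHAC1 is at 1.70 without and -0.38 with 5-FU, while ATF4 is at 0.18 in both.

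The interaction term compares these effects of chloroquine on the log2 scale, so that 0 means that the fold changes of the drugs multiply. It was called for 8 members, 7 below and 1 above 0, where 39.9% of all genes were called (20.6% higher, 19.3% lower). CHAC1 had the lowest value, -2.07 ± 0.203 (edgeR adjusted p = 4.18e-06), with a change of 1.70 without and -0.38 with 5-FU. NUPR1 (-1.98 ± 0.479, adjusted p = 0.00453), ASNS (-1.21 ± 0.262, adjusted p = 0.00215), ATF3 (-1.15 ± 0.102, adjusted p = 1.86e-06), PPP1R15A (-1.15 ± 0.121, adjusted p = 7.61e-06), DDIT3 (-0.66 ± 0.129, adjusted p = 0.00101) and DDIT4 (-0.59 ± 0.157, adjusted p = 0.00786) were also below 0. For DDIT3 this means that chloroquine added less on the log2 scale over the high level of 5-FU than over vehicle, although the combination had the highest level. TRIB3 was above 0 (0.65 ± 0.121, adjusted p = 0.00077), being lower in chloroquine than in vehicle and higher in the combination than in 5-FU. ATF4 (0.00 ± 0.0618, 95% interval -0.13 to 0.14) and CEBPB (0.12 ± 0.17, 95% interval -0.24 to 0.49) did not pass. These 8 members kept their signs in the 8 libraries with low COL1A2, where chloroquine 3 alone stood for its group.

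Levels between genes were compared per length of exon sequence, in CPM per kilobase of the union of exons in GENCODE 29, since no source used here names the annotation the authors counted on. The union for NUPR1 includes 1 long annotated exon, which lowers its value. In vehicle ATF4 led at 307, followed by DDIT4 at 13.9, PPP1R15A at 11.2, TRIB3 at 7.37, ATF3 at 7.2, CEBPB at 6.6, DDIT3 at 5.2, CHAC1 at 1.52, ASNS at 0.752 and NUPR1 at 0.0515. TRIB3 (7.16 to 7.51) and ATF3 (6.73 to 7.9) overlapped over the vehicle libraries, as did ATF3 and CEBPB (6.29 to 6.9), and the other neighbours in this order did not. In the combination ATF4 was at 191, DDIT3 at 42.8 and PPP1R15A at 35.6. DDIT3 thus moved from the seventh place in vehicle to the second in the combination, where its range (40.9 to 46) did not overlap that of PPP1R15A (31.7 to 38.2).

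The wider pathway was read from 7 lists written for these data with earlier results of them known. The named genes are those with the largest and smallest called changes in each list. Counts of the lists stand beside the 39.4% of all genes called in chloroquine, 60.3% in 5-FU, 55.4% in the combination and 39.9% for the interaction. Of 24 tested ATF4 targets for amino acid and one-carbon supply, 12 rose and 2 fell in chloroquine (median 0.22), against 1 and 21 in 5-FU (median -0.93) and 1 and 20 in the combination (median -0.88). The rises in chloroquine were led by the glycine transporter SLC6A9 (1.07 ± 0.0838), the neutral amino acid transporter SLC43A1 (1.04 ± 0.0979) and the mitochondrial folate enzyme ALDH1L2 (0.87 ± 0.0784). The lowest values in 5-FU were those of the cystine transporter SLC7A11 (-2.48 ± 0.0844), ALDH1L2 (-2.08 ± 0.093) and the serine hydroxymethyltransferase SHMT2 (-1.64 ± 0.0579), and SLC3A2, the partner chain of SLC7A11, was the 1 that rose (0.76 ± 0.0753). SLC7A11 averaged 26.9 CPM in vehicle, 39.2 in chloroquine, 4.81 in 5-FU and 4.48 in the combination. The interaction was called below 0 for 8 of the 24, above 0 for 3 and not called for 13 (median -0.07), and was lowest for SLC43A1 (-1.38 ± 0.15) and SLC6A9 (-1.38 ± 0.144).

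The aminoacyl-tRNA synthetases, which load tRNAs and of which many are ATF4 targets, did not rise in chloroquine. Of 13 tested, 0 rose and 6 fell in chloroquine (median -0.11), with VARS1 lowest at -0.50 ± 0.0893. In 5-FU 12 fell and 1 rose (median -0.74), with TARS1 at -0.93 ± 0.0474, MARS1 at -0.89 ± 0.0505 and IARS1 at -0.88 ± 0.0408 below and AARS1 at 0.43 ± 0.0612 above vehicle. In the combination 11 fell and 0 rose (median -0.72), with VARS1 at -1.51 ± 0.0958. The composite element TGATGNAA was present in the promoters of 7 of the 10 synthetases matched (70%) and of 6 of the 17 amino acid supply genes matched (35.3%), beside 3 of 9 members and 4.46% of all genes.

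Targets of ATF4 and CHOP in signalling, redox balance and cell death were mixed, as the members were. Of 24 tested of 28, 15 rose and 1 fell in chloroquine (median 0.41), 11 rose and 9 fell in 5-FU (median 0.19), and 14 rose and 6 fell in the combination (median 0.39). The lipoprotein receptor VLDLR (1.19 ± 0.0934), the death receptor TNFRSF10B (0.94 ± 0.0437) and the angiogenic factor VEGFA (0.92 ± 0.0737) led in chloroquine, and TXNIP was the 1 that fell (-0.66 ± 0.0545). In 5-FU the stress cytokine GDF15 rose by 5.95 ± 0.183, from 0.413 to 26.5 CPM, followed by GADD45B (2.69 ± 0.0657) and TXNIP (1.41 ± 0.0489), while VEGFA fell by 0.79 (SE 0.0799). In the combination VEGFA fell by 1.33 (SE 0.0834), so that it was raised by chloroquine alone and lowered where 5-FU was present (interaction -1.47 ± 0.116), the same order of signs as ASNS and DDIT4. GDF15 and GADD45B were lower in the combination than in 5-FU (-0.76 ± 0.123 and -0.64 ± 0.0622), where DDIT3 was higher. The uridine phosphorylase UPP1 was higher in the combination than in 5-FU by 1.01 ± 0.108 and the glycogen-binding protein STBD1 by 0.93 ± 0.257.

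Among 23 bZIP partners and relatives of ATF4, 13 rose and 2 fell in chloroquine (median 0.30), 12 rose and 7 fell in 5-FU (median 0.20) and 12 rose and 5 fell in the combination (median 0.28). FOS rose in all 3 (1.76 ± 0.273, 2.21 ± 0.268 and 1.97 ± 0.27). MAFF (1.34 ± 0.154) and FOSL2 (1.04 ± 0.0828) followed in chloroquine, and BATF2 (1.66 ± 0.222) and JUNB (1.31 ± 0.0996) in 5-FU. The interaction was called below 0 for 9, above 0 for 3 and not called for 11 (median -0.07), and was lowest for FOS (-2.00 ± 0.375), JUNB (-1.29 ± 0.146) and FOSL2 (-0.99 ± 0.119).

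Upstream of ATF4, mRNAs on the list of eIF2alpha kinases and their regulators mostly fell in the groups with 5-FU. Of the 9 listed, 2 rose and 2 fell in chloroquine (median 0.00). In 5-FU 1 rose and 6 fell (median -0.26), and in the combination 1 rose and 6 fell (median -0.23). Among the kinases, EIF2AK1 and EIF2AK4 were called lower in both groups with 5-FU. EIF2AK3 passed in neither of these groups, and EIF2AK2 did not pass in 5-FU. EIF2AK3, which encodes the endoplasmic reticulum kinase PERK, rose by 0.43 ± 0.0708 in chloroquine. The lowest in 5-FU were the mitochondrial protease OMA1 (-1.18 ± 0.0975), the GCN2 inhibitor IMPACT (-0.81 ± 0.0663) and EIF2AK4, which encodes GCN2 (-0.58 ± 0.0541). In the combination EIF2AK2, which encodes the double-stranded RNA kinase PKR, was 0.47 ± 0.0727 above vehicle and 0.53 ± 0.0781 above 5-FU. Of 14 genes listed for eIF2, eIF2B and the phosphatases, 10 fell in chloroquine, 10 in 5-FU and 8 in the combination. In the same order, 2, 1 and 0 rose. The list includes EIF2A and EIF2D, which are not subunits of these complexes. EIF2D was among those that rose in chloroquine (0.46 ± 0.0468), and EIF2A was lowest in 5-FU (-0.66 ± 0.0647). EIF2B3 (-0.61 ± 0.0671) and EIF2B2 (-0.49 ± 0.0765), subunits of the exchange factor that phosphorylated eIF2 inhibits, were lowest in chloroquine.

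**Figure D4:**
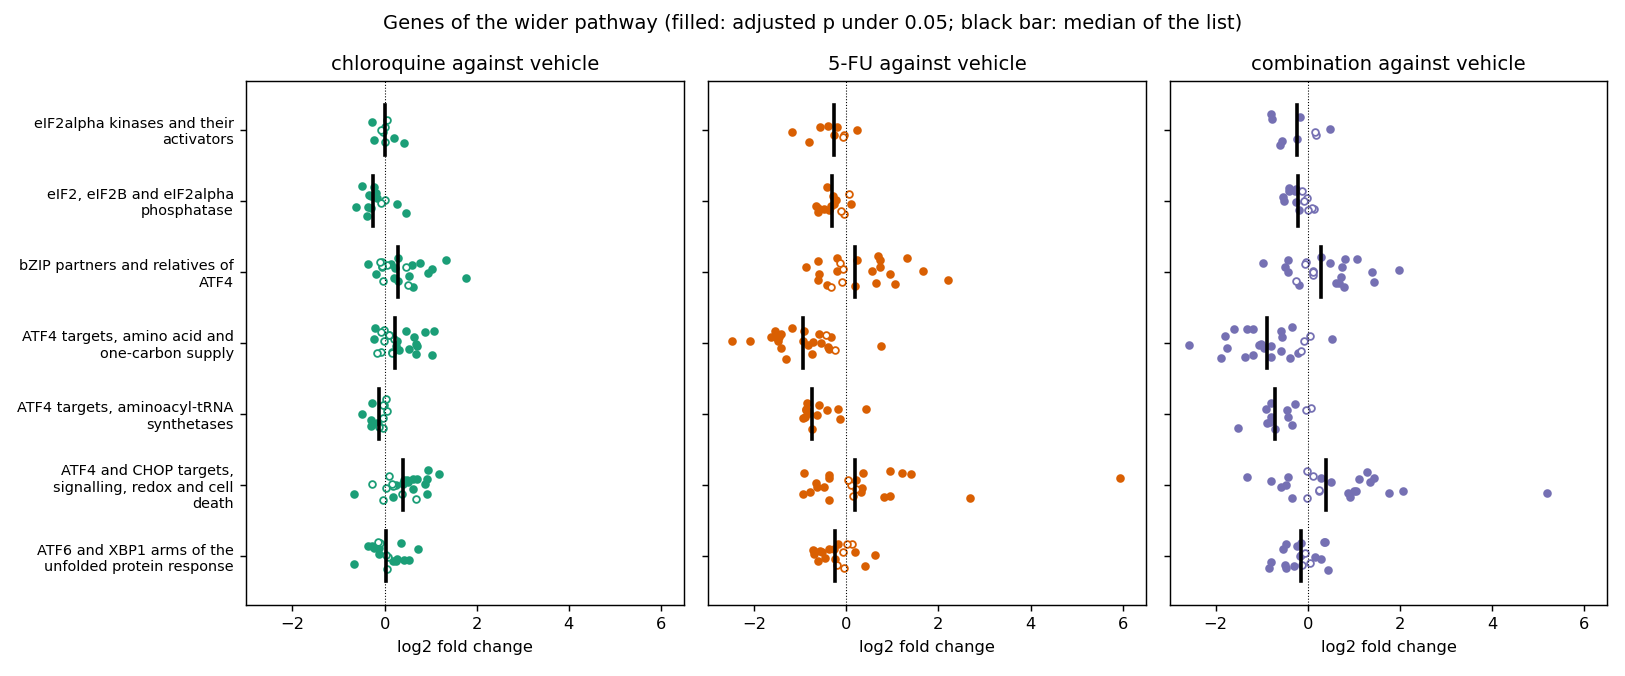
Log2 fold change against vehicle of each tested gene of the 7 pathway lists in chloroquine, 5-FU and the combination. Filled points have an edgeR adjusted p under 0.05, open points did not pass, and black bars are list medians. Amino acid supply genes shift from 12 higher and 2 lower in chloroquine to 1 higher and 21 lower in 5-FU.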

How the data were processed

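Libraries from total RNA kept the strand, per the labels' protocols. What the authors deposited is 1 table of whole-number read counts per gene symbol, with no normalization. The submitters' processing notes name DESeq and the mouse build GRCm38, although the gene symbols are human. No source used here gives the aligner, the counter, its annotation or its strand setting. Every column was matched to its sample by name.

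Counts of 60591 genes (17834539 to 23679833 per library) were filtered with filterByExpr, scaled by TMM and fitted with edgeR 4.0.16 (R 4.3.3) in 1 quasi-likelihood model of 13 libraries with a mean per group. It gave 7 comparisons, with p-values adjusted over all 19514 tested genes (Benjamini-Hochberg, 0.05). Standard errors are the size of the log2 change over the root of the F statistic. The script was tested on simulated data. No 2 libraries of a group shared the counts of more than 3.86% of genes, so none was treated as a duplicate.

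The members and lists were chosen with earlier results of these data known, and GPT2 is on both the amino acid supply and the signalling list. Named genes are the 10 members, up to 3 called genes at each end of every list per comparison, and the 3 genes nearest to each member by the root mean square difference of centred log2 CPM. The alternatives were DESeq2 1.42.0, limma-voom (limma 3.58.1), other scaling and filters, a replicate block, a term for or removal of libraries with at least 50 COL1A2 counts, and leaving out each library. The labels number the replicates without saying that a number marks a shared culture or day. Deviations from the group means correlated at 0.341, 0.743 and 0.339 between same-numbered libraries of 5-FU and the combination. The 0.743 is for replicate 2, where both libraries carried foreign transcripts. Every other pair of groups had values of both signs, from -0.448 to 0.521. Differently numbered libraries were not compared, so these values do not establish pairing. A block for 5-FU and the combination was fitted only as an alternative, and the main fit has none.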

Additional observations from a re-analysis of the deposited data

Results flagged for a closer look

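The effect of chloroquine differed between cells without and with 5-FU for 8 of the 10 genes, by the interaction term of the edgeR fit (difference of the log2 effects, 5-FU present minus absent), which was called for 39.9% of all genes tested (20.6% higher, 19.3% lower). The values were -2.07 for CHAC1, -1.98 for NUPR1, -1.21 for ASNS, -1.15 for ATF3, -1.15 for PPP1R15A, -0.66 for DDIT3, -0.59 for DDIT4 and 0.65 for TRIB3.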

How the results depend on the processing

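No change that was called reversed under any alternative. Of those not called, CHAC1 in 5-FU ranged from -0.11 to 0.13, TRIB3 in 5-FU reached 0.01, CEBPB in the combination reached -0.07, TRIB3 in 5-FU against chloroquine reached -0.06, and the interaction reached -0.14 for ATF4 and -0.02 for CEBPB. Of the counts of members called, 90 of 91 computed without 1 library and 76 of 84 computed under other settings were within 1.5 times of the reported count. Leaving out each library in turn gave 9 to 10 called in chloroquine, 8 to 9 in 5-FU, 7 to 9 in the combination, 4 to 7 for the combination against 5-FU (7 without combination 1), 8 to 9 against chloroquine, 9 for 5-FU against chloroquine and 8 for the interaction. Scaling by library size alone gave 7 for the combination against 5-FU. Requiring 10 CPM in 3 libraries removed ASNS, CHAC1 and NUPR1 and gave 6 in chloroquine and 5 for the interaction. Requiring also a log2 change of at least 1 gave 4 in chloroquine, 4 in 5-FU, 0 for the combination against 5-FU, 4 for the combination against chloroquine and 5 for the interaction. Of the calls of single members, 28 were lost by construction to that limit. A further 15 were lost and 9 gained under other settings, and 13 were lost and 5 gained without 1 library, and the cause was not tested. NUPR1, ASNS and CHAC1 had the fewest counts, which limits their precision.

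With the replicate number as a block in all 13 libraries, 9 members were called in chloroquine, 8 in 5-FU, 8 in the combination, 4 for the combination against 5-FU, 9 for the combination against chloroquine, 9 for 5-FU against chloroquine and 8 for the interaction. TRIB3 in chloroquine (-0.21, adjusted p = 0.0881) and CHAC1 in the combination (-0.44, adjusted p = 0.0505) were not called by that fit. The block fitted in 5-FU and the combination alone, added after the data were seen, called 4. Adding the pseudogene rows to ATF4 and ASNS, also added afterwards, left the number called in each comparison as reported.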

Other observations

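Among the members, ATF3 and PPP1R15A had the most similar pattern over the 13 libraries (root mean square difference of centred log2 CPM 0.207), followed by ATF4 and DDIT4 (0.224). Outside the members, the gene closest to ATF4 was USP13, a deubiquitinase (0.0552), then UBQLN2 (0.0708) and MOCOS (0.0715). INKA2 was closest to ATF3 (0.103), EMC3-AS1 to PPP1R15A (0.121), KLHL29 to DDIT4 (0.117), SPSB4 to CEBPB (0.12), LMAN2 to TRIB3 (0.0699) and LRP8 to ASNS (0.193). PLEKHA4 was closest to DDIT3 (0.226), C1QTNF6 to CHAC1 (0.265) and CD44 to NUPR1 (0.428). For CHAC1 the third gene was SLC43A1 (0.305), which is also on the amino acid supply list.

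The ATF6 and XBP1 arms of the unfolded protein response, which act beside the integrated stress response, showed no shared direction in chloroquine, with 7 of 19 genes higher and 7 lower (median 0.04). The co-chaperone DNAJB9 (0.72 ± 0.0733) and the ubiquitin ligase SYVN1 (0.53 ± 0.0618) rose and SDF2L1 fell by 0.67 (SE 0.144). In 5-FU 3 rose and 11 fell (median -0.25), among them the chaperone HSP90B1 (-0.70 ± 0.0618), and in the combination 5 rose and 11 fell (median -0.15), with HYOU1 at -0.81 ± 0.0685. ASNSP1, a pseudogene of ASNS with 5 to 55 counts, rose by 1.95 ± 0.342 in chloroquine (edgeR adjusted p = 0.000466) and did not pass in 5-FU (0.10 ± 0.377, adjusted p = 0.832), where ASNS itself fell.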
